A study of Mus musculus with 8 samples.

Results

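Potassium channel genes were taken from a table of gene expression in embryonic mouse kidney as every row whose identifier starts with Kcn, leaving out the antisense transcript Kcnq1ot1. This gave 94 genes of the 23337 in the table. RNA was sequenced from kidneys dissected at E13.5, in midgestation, in 4 mutant and 4 control libraries. Mutant kidneys had the genotype Foxd1Cre;Smo(flox/-): Cre recombinase under control of the stromal progenitor gene Foxd1, with one Smo allele floxed and the other null. Smo encodes the hedgehog signal transducer Smoothened. Control kidneys were Smo(flox/+), where the second allele is wild type and no Cre is listed. Both groups carried a floxed Smo allele on a mixed C57BL/6 background. Besides the deletion in the Foxd1 lineage, mutants were heterozygous null for Smo throughout and had the Cre allele. The effects of these 3 changes cannot be told apart. Samples are numbered 1 to 4, and nothing in the labels ties them to different embryos or litters. The p-values thus measure the spread between these samples, which may be technical.

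Potassium channels are membrane pores that let potassium leave or enter the cell and so set its resting voltage. The voltage-gated (Kv) channels open on depolarisation, inward rectifiers hold the membrane near its resting voltage, tandem pore domain channels carry background leak currents, and a further class opens on calcium or sodium. Accessory proteins, among them the Kcnab, Kcnip and Kcne products, alter the gating or surface expression of pore-forming subunits. In mature kidney, potassium channels of the tubule recycle potassium and drive sodium and acid transport, while those of vessels set arterial tone.

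The libraries held 10288191 to 13494079 reads in genes, recovered from the normalised counts. Smo itself was at 537 ± 20.01 normalised counts in mutant kidneys, against 2241 ± 66.4 in control kidneys (SD, n = 4 each), and no library went against its label. Of markers chosen for renal compartments, all 7 for cortical stroma, all 7 for nephron progenitors and all 9 for ureteric epithelium had a mean of at least 10. Skeletal muscle markers had a summed level of 71.7 to 1506 in mutant and 68.6 to 2613 in control libraries, highest in the libraries numbered 2 of both groups. Levels below are in normalised read counts, and a ± is the SD over the 4 libraries of a group. A log2 fold change is positive where mutants were higher, after adding 1 to each normalised count. Each adjusted p is limma's, by Benjamini and Hochberg's method across the 13692 genes tested, and a gene passed with a value under 0.05.

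Most potassium channel genes had few reads. At least 1 read was found in every library for 66 of the 94 genes, 50 had a mean of at least 10 and were tested, and 33 were above 0 somewhere without exceeding 10 in any library. Kcna10 and Kcnk15 had no read in any library, which allows up to 3 reads in 92567942 over all 8 libraries. The tested genes had a median level of 43.9, against 347 for all tested genes, and 13 of them had a mean of at least 100. Kcnj2 was the highest at 352 over all libraries. Just above the mean of 10 stood Kcnh3 at 11.3, Kcng1 at 11.3 and Kcnn4 at 12.3, and just below it Kcnn2 at 9.87, Kcnk10 at 9.56 and Kcnh5 at 9.35. By class, 19 of 30 pore-forming Kv genes were tested, 4 of 10 silent Kv subunits and 8 of 13 accessory subunits. So were 7 of 15 inward rectifiers, 5 of 14 tandem pore domain genes and 7 of 12 genes of the calcium- or sodium-activated class. The last class includes the Kcnmb genes, accessory beta subunits of the Kcnma1 channel, which are not among the accessory subunits counted here. Classes were assigned by gene symbol, not by gating, and Kcnu1 was placed in the last class in this way. Corrected for exonic length in GENCODE vM21, the order differed, with Kcnk1 at 94.4, Kcne1l at 72.3, Kcnj2 at 64.7, Kcnk5 at 52.1, Kcnh2 at 51.2 and Kcnj8 at 47.8 normalised counts per kb over all 8 libraries.

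**Figure D1:**
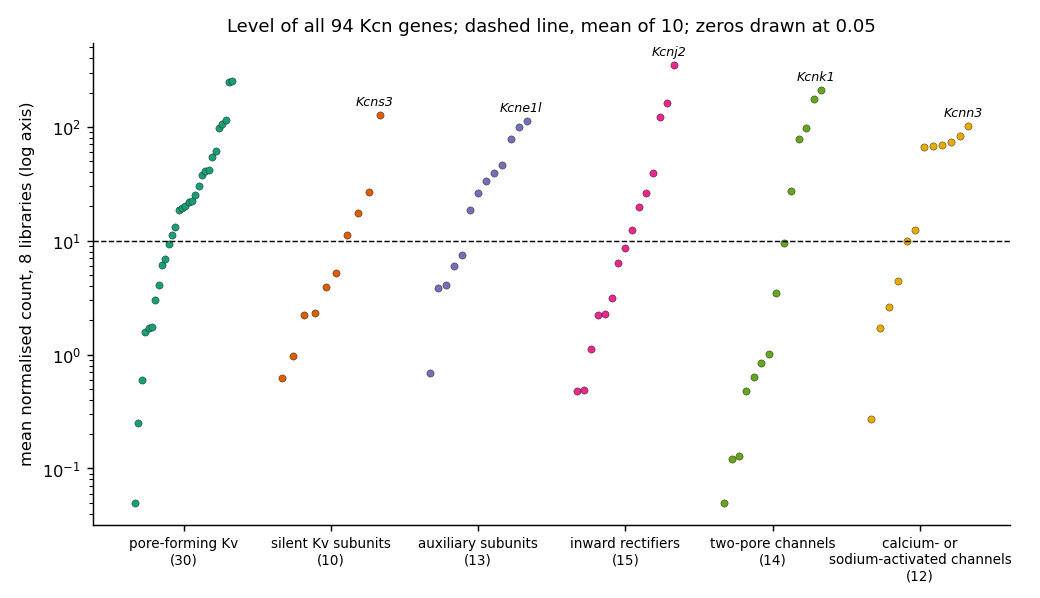
Mean normalised count over the 8 libraries (log axis) of all 94 Kcn genes by channel class, with the number of genes under each class name and the highest gene named in 5 of the 6 classes. The dashed line is the mean of 10 above which 50 genes were tested, and Kcnj2 is the highest at 352.

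Across the tested genes 1 of 50 passed, Kcnd2, which was lower in mutant kidneys. Of all tested genes 0.57% passed, 0.446% as lower and 0.124% as higher. By edgeR Kcnd2 alone passed as well, and by DESeq2 Kcnd2 and Kcnd3. All genes that passed numbered 79 by edgeR and 214 by DESeq2, of the same 13692. The groups did not overlap for 2 of the 50 (Kcnd2 and Kcnd3), against 5.31% of all tested genes, and 5 of the 50 had an unadjusted p under 0.05, against 8.7% of all tested genes. Fold changes were negative for 30 of the 50, against 48.1% of all tested genes, and positive for 20. Their median was -0.07, beside 0.0037 for all tested genes. The potassium channel genes varied more between libraries of the same group than genes at large, with a median within-group SD of 0.30 on the log2 scale against 0.11, at their lower counts. The 95% interval of the fold change reached a median of 0.48 to either side on the log2 scale, and for 43 of the 50 it excluded a 2-fold difference in either direction.

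**Figure D2:**
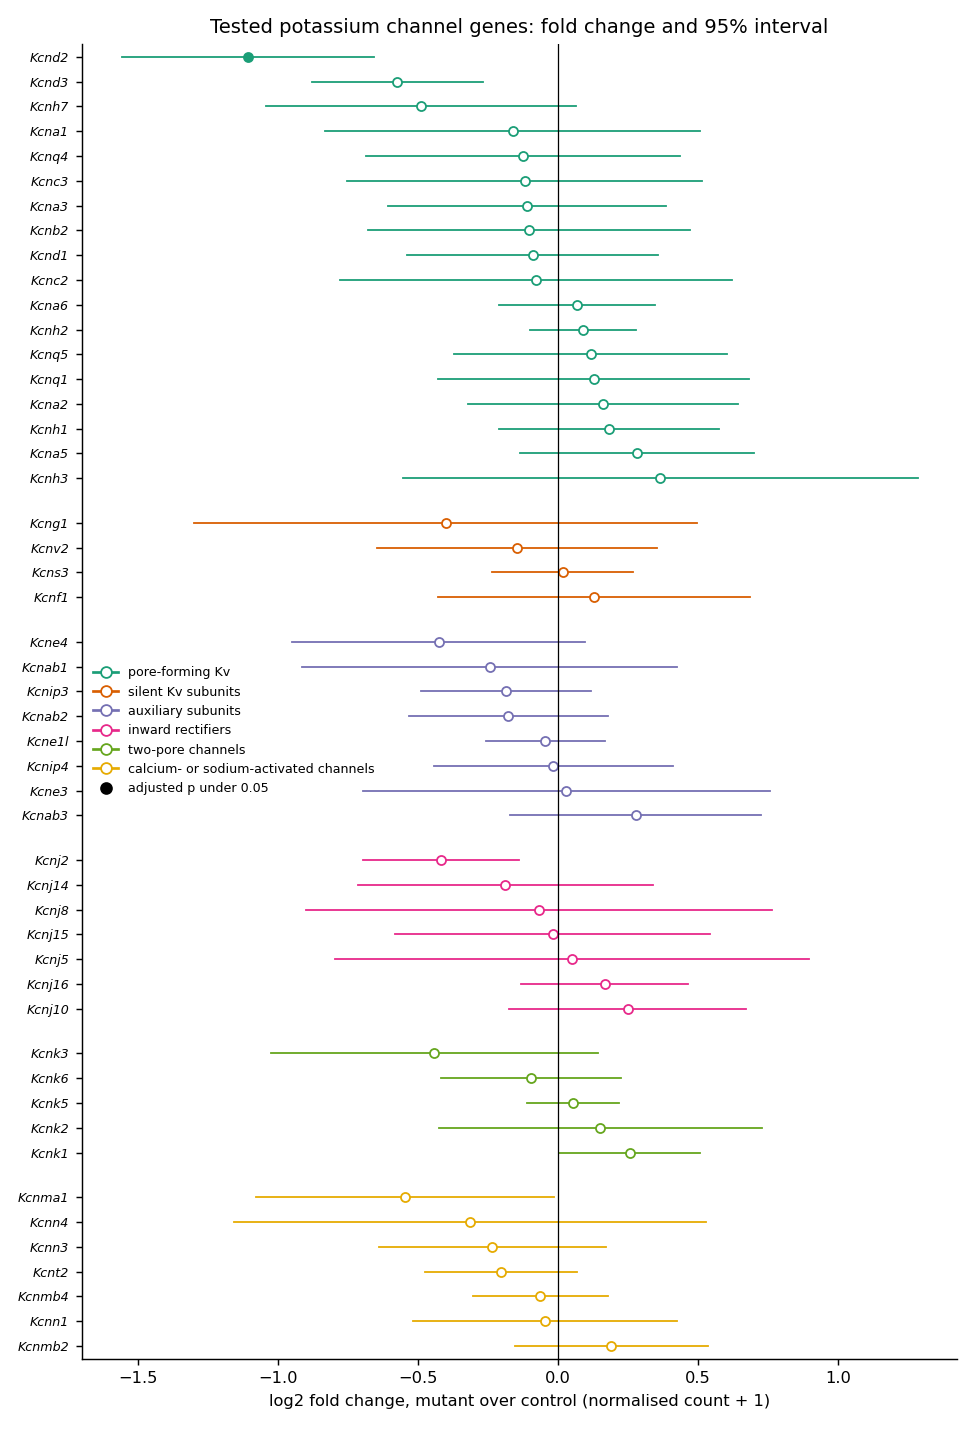
Log2 fold change of mutant over control with its 95% interval (horizontal axis) for 49 of the 50 tested potassium channel genes, grouped by class, with a filled point for an adjusted p under 0.05. Kcnd2 at -1.11 is the single filled point, and most intervals cross 0.

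The Kv4 genes Kcnd1, Kcnd2 and Kcnd3 encode pores of fast, inactivating potassium currents in heart and nerve. The sequences of 250 bases before the annotated start of the 2 Kv4 genes whose groups did not overlap, and of the inward rectifier gene Kcnj2, which had the next smallest p, are shown here because these are the members with the clearest differences. They are from RefSeq, build GRCm38.p6, plus strand, 5′ to 3′, at chr6:21215096-21215345 for Kcnd2, chr3:105451640-105451889 for Kcnd3 and chr11:111065914-111066163 for Kcnj2, with each CG dinucleotide in capitals.
Kcnd2: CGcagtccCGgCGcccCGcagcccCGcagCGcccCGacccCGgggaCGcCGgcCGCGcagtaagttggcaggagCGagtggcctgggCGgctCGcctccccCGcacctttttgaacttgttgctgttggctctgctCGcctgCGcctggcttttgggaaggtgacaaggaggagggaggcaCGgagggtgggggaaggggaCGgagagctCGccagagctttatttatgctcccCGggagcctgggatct
Kcnd3: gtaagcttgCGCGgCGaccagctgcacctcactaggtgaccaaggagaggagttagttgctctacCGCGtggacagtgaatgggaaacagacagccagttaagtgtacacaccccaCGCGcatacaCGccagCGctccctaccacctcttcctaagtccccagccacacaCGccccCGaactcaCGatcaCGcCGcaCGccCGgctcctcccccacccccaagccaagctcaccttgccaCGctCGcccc
Kcnj2: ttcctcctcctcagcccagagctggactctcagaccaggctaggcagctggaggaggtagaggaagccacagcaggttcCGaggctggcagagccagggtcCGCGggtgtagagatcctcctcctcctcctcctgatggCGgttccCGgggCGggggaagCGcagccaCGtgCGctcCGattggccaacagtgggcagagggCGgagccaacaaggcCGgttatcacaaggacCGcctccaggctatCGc
They hold 22, 18 and 14 CG dinucleotides, where the median over 32851 promoters of the same length was 6. As many as in Kcnd2 were found in 14.8% of these promoters, as many as in Kcnd3 in 21.7% and as many as in Kcnj2 in 29.4%. The hedgehog effector Gli binds sites like GACCACCCA. Neither this word nor its core ACCACCC, which lies within it, occurred on either strand of the 3 sequences. The longer word was in 0.225% of all promoters and in none of the 94 promoters listed for 69 potassium channel genes. The core was in 3.92% of all promoters and in 4 promoters of 2 of these genes, Kcnc2 and Kcnip2.

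Kcnd2, on chromosome 6 from 21215346 to 21729805, had 45.8, 52.2, 80.7 and 68.7 normalised counts in mutant libraries 1 to 4, against 100.4, 114, 163 and 159 in control libraries 1 to 4. Every mutant library lay below every control library. The gene fell to 61.9 ± 15.8 in mutant kidneys, against 134 ± 31.6 in control kidneys, or 46.2% of control. The log2 fold change was -1.11 (SE 0.206, 95% interval -1.56 to -0.65, adjusted p = 0.0424). These levels rest on 48 to 72 reads per mutant library and 110 to 169 per control library. Permuting the labels in all 70 arrangements, an exact test of both sides, gave p = 0.0286, the smallest value possible. Any gene whose groups do not overlap has this value, Kcnd3 included, so it adds nothing to the absence of overlap. The authors' own test, in their deposited table, rests on the same 8 libraries. There Kcnd2 was the single Kcn gene of 92 with an adjusted p under 0.05 (adjusted p = 0.0076). Among all genes in that test, 117 of 19066 had an adjusted p under 0.05.

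The size of the difference in Kcnd2 held with any library left out, from -1.24 to -0.98, while its call did not. Kcnd2 still passed without control 1 (adjusted p = 0.0437). It no longer passed without mutant 1 (adjusted p = 0.127), mutant 2 (0.125), mutant 3 (0.0590), mutant 4 (0.0525), control 2 (0.0890), control 3 (0.1502) or control 4 (0.0509), each from limma with 1 library fewer. Without both libraries numbered 2 the fold change was -1.11 (adjusted p = 0.248).

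Of the markers of cortical stroma, the layer that expresses Foxd1, some were lower in the mutants together with Kcnd2. The summed level was 10100 to 12575 in mutant and 14947 to 16434 in control libraries, and 2 of 7, Foxd1 and Smoc2, passed as lower by limma and by edgeR. DESeq2 called 5 of the 7, adding Ntn1, Sfrp1 and Aldh1a2, while Meis1 and Dcn had log2 fold changes of -0.05 and -0.13. A Cre allele placed in the Foxd1 gene can itself lower Foxd1, and the labels do not say where the Cre lies. Nephron progenitor markers had a summed level of 7937 to 8424 in mutant and 6305 to 7282 in control libraries. All 7 had fold changes above 0, with Itga8 passing by limma and 4 by DESeq2. The part of either list in the level of Kcnd2 was not tested. In bulk kidney, fewer cells of a type and less RNA per cell cannot be told apart. Neuronal markers, from cells in which Kv4 channels are well known, had a summed level of 665 to 794 in mutant and 638 to 825 in control libraries, and 0 of 7 tested markers passed by limma, edgeR or DESeq2. Of these 7, Elavl4 had an unadjusted p under 0.05 and was higher in mutants. Kcnd2 lies 8.01 Mb from Smo, on the chromosome that carries a null Smo allele in mutants and a wild type one in controls. Of the tested genes within 20 Mb of Smo, counting Kcnd2 and leaving out Smo, 5 of 161 passed (3.11%), 3 of them as lower (1.86%). For a gene at this distance, loss of Smo and other sequence carried along with the Smo alleles cannot be told apart.

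Kcnd3, on chromosome 3 from 105451890 to 105674002, had 94.5, 98.0, 78.4 and 94.5 normalised counts in mutant libraries 1 to 4, against 140.4, 166, 139 and 105 in control libraries 1 to 4. The groups did not overlap, with mutant 2 at 98.0 next to control 4 at 105. Kcnd3 averaged 91.4 ± 8.78 in mutant and 138 ± 25.1 in control kidneys, and did not pass (log2 fold change -0.57, SE 0.140, adjusted p = 0.123). It passed by DESeq2 on the recovered reads (log2 fold change -0.59, adjusted p = 0.0369) and by limma without control 4 (-0.69, adjusted p = 0.0196). Over all 13692 tested genes, 214 passed by DESeq2 and 185 by limma without control 4, against 78 by limma with all libraries. The transcripts of Kcnd2 and Kcnd3 share no run of 50 bases, so no read of that length matches both exactly. Matches with mismatches were not looked at. Exons of Kcnd3 overlap those of the antisense gene Kcnd3os over 165 bases.

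The third Kv4 gene and the accessory proteins of Kv4 channels had smaller fold changes where they were tested. Kcnd1, on the X chromosome, averaged 21.5 ± 3.36 in mutant and 22.9 ± 3.03 in control kidneys (log2 fold change -0.09, 95% interval -0.54 to 0.36). The Kcnip genes encode calcium-binding proteins that attach to Kv4 channels. Kcnip3 averaged 73.3 ± 7.11 in mutant and 84.0 ± 12.6 in control kidneys (log2 fold change -0.19, adjusted p = 0.807), and Kcnip4 25.9 ± 4.10 and 26.1 ± 3.50 (log2 fold change -0.02). Kcnip1 and Kcnip2 were below a mean of 10 and not tested, Kcnip1 at 2.35 ± 2.80 in mutant and 5.32 ± 3.90 in control kidneys. Dpp6 and Dpp10, transmembrane partners that speed Kv4 gating, had log2 fold changes of 0.08 (adjusted p = 0.910) and 0.21 (adjusted p = 0.915). Whether the fold change of Kcnd2 differs from those of these genes was not tested.

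**Figure D3:**
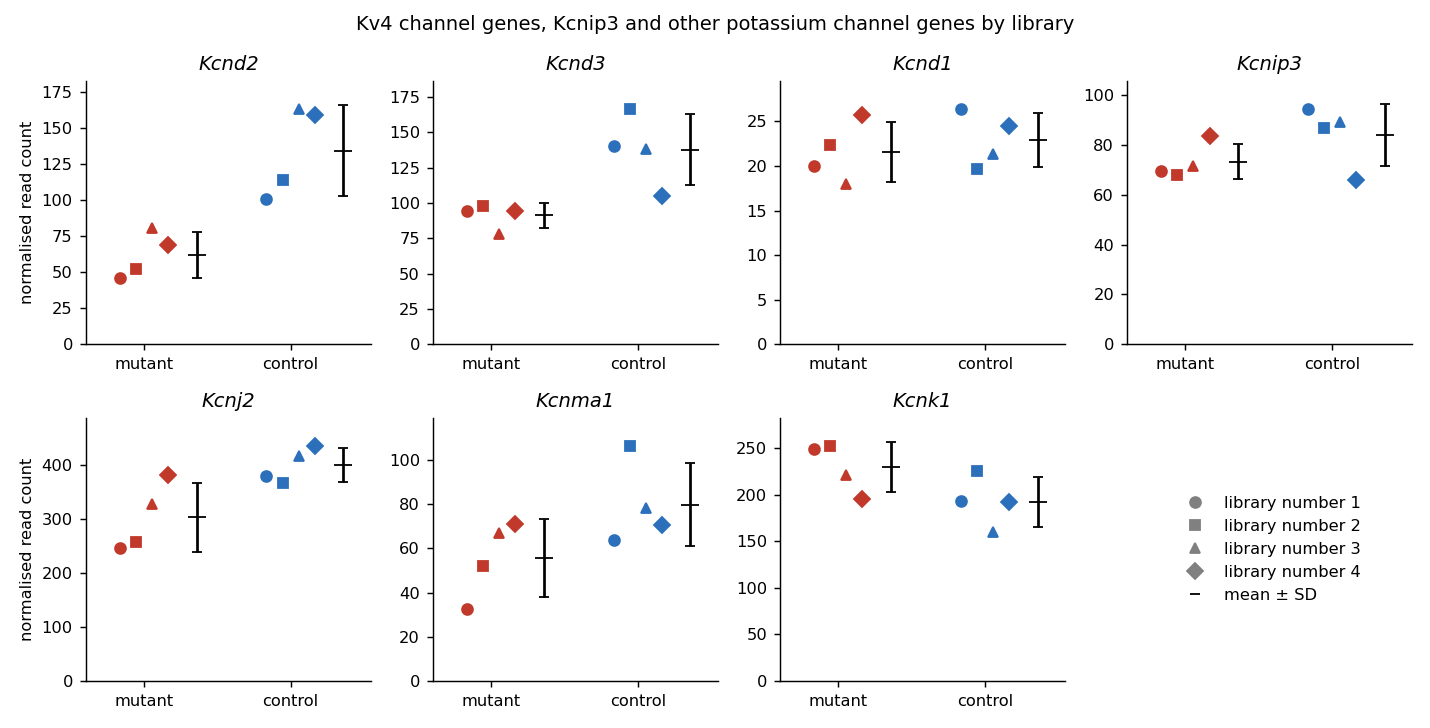
Normalised read count in each library for the 3 Kv4 genes, Kcnip3, and Kcnj2, Kcnma1 and Kcnk1, mutant left and control right, with a marker shape for each library number and the mean ± SD (n = 4 per group) in black. Mutant and control points of Kcnd2 and Kcnd3 do not overlap, and those of the other 5 genes do.

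**Figure D4:**
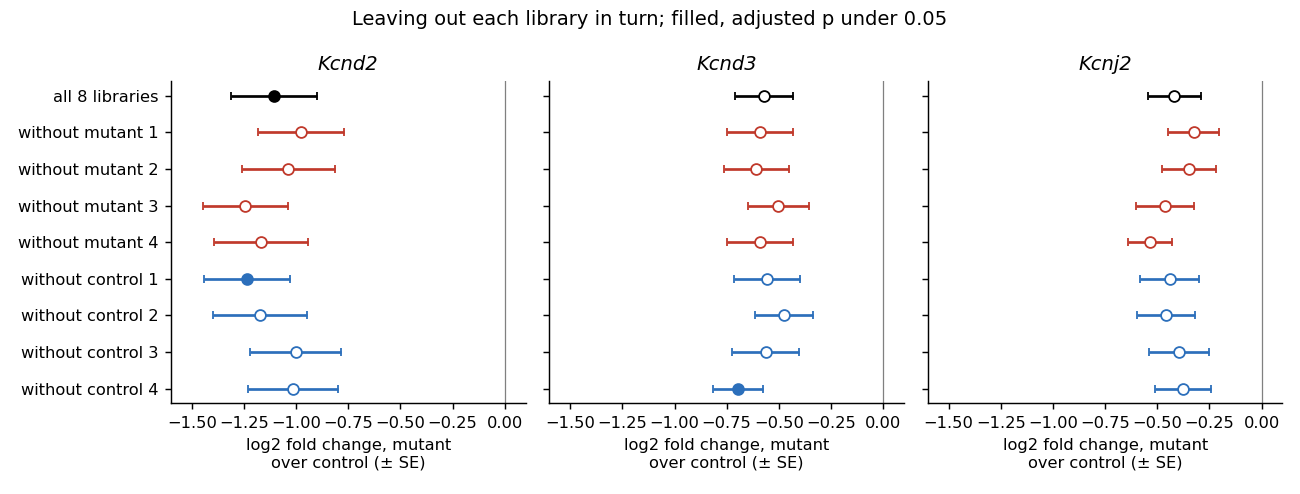
Log2 fold change of mutant over control ± SE (horizontal axis) for Kcnd2, Kcnd3 and Kcnj2 with all 8 libraries and with each library left out, filled where the adjusted p was under 0.05. The point for Kcnd2 is filled with all libraries and without control 1, and that for Kcnd3 only without control 4.

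The other pore-forming Kv genes, 16 besides the Kv4 genes, held no gene that passed. Kcnh2, the hERG channel of cardiac repolarisation, averaged 256 ± 31.3 in mutant and 239 ± 3.87 in control kidneys (log2 fold change 0.09, 95% interval -0.10 to 0.28). This interval excludes a difference as large as that of Kcnd2. Kcnh7, a relative of Kcnh2, averaged 16.8 ± 4.85 in mutant and 23.8 ± 4.83 in control kidneys (log2 fold change -0.49, adjusted p = 0.650), and 696 bases of its exons overlap Gca on the opposite strand. For Kcna5, a Shaker-type channel of heart and arteries, the values were 60.3 ± 11.5 in mutant and 49.4 ± 9.98 in control kidneys (log2 fold change 0.28, adjusted p = 0.784). Kcnh3 had the highest fold change of the 50 tested genes, 0.36, on 5.73 to 18.1 counts in mutant and 4.13 to 12.8 in control libraries (adjusted p = 0.889).

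Silent Kv subunits form no channel alone and modify those of other Kv genes. None of 4 passed by limma, and none had an unadjusted p under 0.05. Kcns3, the highest, averaged 129 ± 18.4 in mutant and 127 ± 9.30 in control kidneys (log2 fold change 0.02, 95% interval -0.24 to 0.27). Kcng1 averaged 9.42 ± 4.04 in mutant and 13.2 ± 6.43 in control kidneys, a wide spread in both groups (log2 fold change -0.40, adjusted p = 0.866).

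Accessory subunits, the Kcnmb genes aside, held no gene that passed among 8 tested, and none had an unadjusted p under 0.05 by limma. Kcne1l, an X-linked member of the single-span Kcne family, was the highest and among the steadiest, at 110 ± 7.66 in mutant and 113 ± 7.14 in control kidneys (log2 fold change -0.05, 95% interval -0.26 to 0.17). Its relative Kcne4, an inhibitor of several Kv channels, averaged 39.5 ± 13.1 in mutant and 52.4 ± 11.5 in control kidneys (log2 fold change -0.43, adjusted p = 0.701). Kcnab3, a cytoplasmic beta subunit, averaged 42.6 ± 1.51 in mutant and 36.1 ± 10.99 in control kidneys (log2 fold change 0.28, adjusted p = 0.804).

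Of 7 tested inward rectifier genes none passed. Kcnj2, on chromosome 11 from 111066164 to 111076825, encodes the classical strong inward rectifier. It had 246, 258, 328 and 382 normalised counts in mutant libraries 1 to 4, against 381, 367, 418 and 436 in control libraries 1 to 4. Mutant 4 at 382 lay within the control range, and the other 3 mutants lay below every control. The means were 304 ± 63.7 in mutant and 400.5 ± 32.0 in control kidneys, with -0.42 as the log2 fold change (SE 0.126, adjusted p = 0.252). Kcnj16 and Kcnj10 form a heteromeric channel of the basolateral membrane in distal tubule. Kcnj16 averaged 172 ± 26.9 in mutant and 153 ± 21.9 in control kidneys (log2 fold change 0.17, adjusted p = 0.821), and Kcnj10 42.9 ± 10.6 and 35.2 ± 2.34 (log2 fold change 0.25, adjusted p = 0.813). Kcnj1, the apical secretory channel of distal tubule, was below a mean of 10, at 0 to 4.26 counts in mutant and 0.94 to 5.10 in control libraries.

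Kcnj8 encodes the pore of the vascular ATP-sensitive channel and Abcc9 its sulphonylurea receptor subunit. Kcnj8 had 137, 142, 95.2 and 76.3 normalised counts in mutant libraries 1 to 4, against 174, 205, 94.9 and 49.8 in control libraries 1 to 4. The highest library was 4.11 times the lowest, the widest within-group spread of any tested member (SD 0.72 on the log2 scale), and the groups overlapped (log2 fold change -0.07, 95% interval -0.90 to 0.76). Abcc9, named here after its values were seen, had 537, 548, 278 and 257 in mutant libraries 1 to 4, against 556, 509, 349.7 and 86.5 in control libraries 1 to 4 (log2 fold change 0.32, adjusted p = 0.920). In both groups both genes were higher in libraries 1 and 2 than in libraries 3 and 4. Among the tested members, 6 had that order in both groups (Kcnd3, Kcnj8, Kcnj10, Kcnk1, Kcnk6 and Kcnn4) and 3 had the opposite order in both (Kcnd2, Kcnj2 and Kcnk2). The share of all tested genes with either order was not counted, so neither order can be called particular to these genes. Pericyte and renin cell markers, a cell type known for Kcnj8 and Abcc9, had a summed level of 3307 to 3630 in mutant and 3641 to 3823 in control libraries, so that the groups did not overlap. None of 4 tested markers passed by limma, edgeR or DESeq2, Cspg4 had an unadjusted p under 0.05 and was lower in mutants, and Ren1 and Higd1b were under 10 in every library. Their part in the spread of Kcnj8 was not tested. The fold change of Kcnj8 lay between -0.46 and 0.21 with 1 library left out, and its sign changed without mutant 4, control 1 or control 2. It was 0.65 without both controls 1 and 2 (adjusted p = 0.547).

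**Figure D5:**
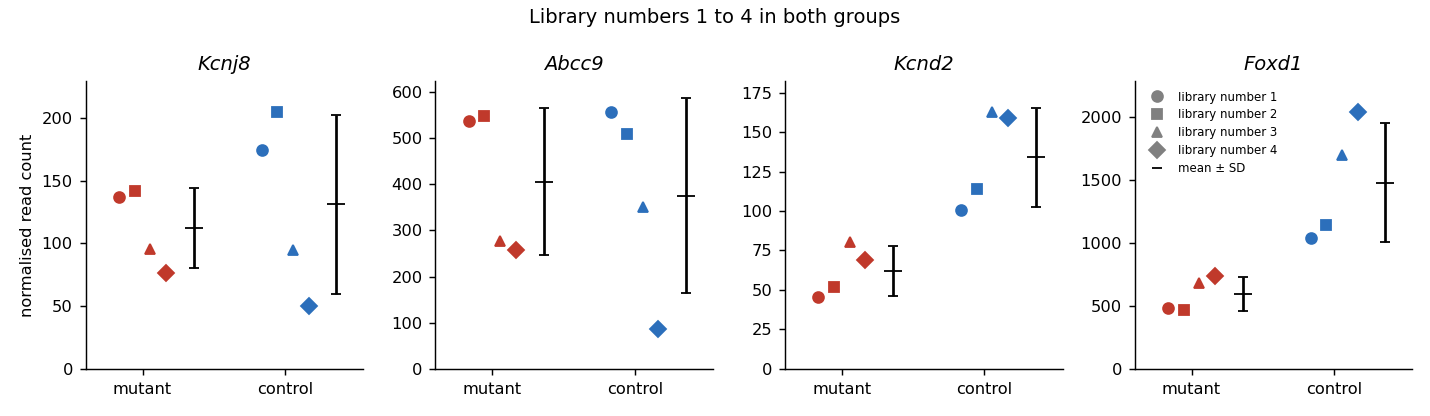
Normalised read count in each library of Kcnj8, Abcc9, Kcnd2 and Foxd1, mutant left and control right, with a marker shape for each library number and the mean ± SD (n = 4 per group) in black. Kcnj8 and Abcc9 are higher in libraries 1 and 2 than in 3 and 4 of both groups, and Kcnd2 and Foxd1 are lower.

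Of 5 tested tandem pore domain genes none passed. Kcnk1 encodes a weak leak channel of tubular epithelium. It had 249, 252, 221 and 195 normalised counts in mutant libraries 1 to 4, against 193, 225, 159.9 and 192 in control libraries 1 to 4. The groups overlapped, with means of 229 ± 26.8 in mutant and 193 ± 26.7 in control kidneys (log2 fold change 0.25, SE 0.115, adjusted p = 0.561). Ureteric epithelium markers, with a summed level of 6728 to 8959 in mutant and 5854 to 7798 in control libraries, had fold changes above 0 in all 9. Of these 9, 0 passed by limma or edgeR, 1 by DESeq2 (Ret), and 6 had an unadjusted p under 0.05. Their part in the level of Kcnk1 was not tested. Kcnk5, an alkaline-activated leak channel linked to bicarbonate handling in proximal tubule, had the smallest spread across libraries, 1.14 times from lowest to highest, at 180 ± 7.52 in mutant and 174 ± 8.87 in control kidneys (log2 fold change 0.05, 95% interval -0.11 to 0.22). Kcnk3, an acid-sensitive leak channel, averaged 22.7 ± 5.15 in mutant and 31.7 ± 9.22 in control kidneys (log2 fold change -0.44, adjusted p = 0.739).

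The calcium- or sodium-activated class, which includes the Kcnmb genes, had 7 tested genes, none of which passed. Kcnma1 encodes the large-conductance calcium-activated pore that limits smooth muscle contraction. It had 32.5, 52.2, 67.2 and 70.9 normalised counts in mutant libraries 1 to 4, against 63.8, 106, 78.5 and 70.5 in control libraries 1 to 4. The groups overlapped, with the lowest value in mutant 1 and the highest in control 2 (means 55.7 ± 17.5 and 79.8 ± 18.8, log2 fold change -0.55, SE 0.242, adjusted p = 0.554). Smooth muscle markers had a summed level of 1528 to 1867 in mutant and 1514 to 2044 in control libraries, also highest in control 2. Skeletal muscle markers were highest in that library too, at 2613. Acta2 of the smooth muscle list was at 479 there, against 118 to 215 in the other controls. None of 5 tested smooth muscle markers passed by limma, edgeR or DESeq2. Des had an unadjusted p under 0.05 and was higher in mutants (log2 fold change 0.33), where the other 4 had fold changes below 0. The part of either list in the level of Kcnma1 was not tested. Kcnn3, a small-conductance calcium-activated channel, averaged 94.1 ± 22.3 in mutant and 110 ± 21.3 in control kidneys (log2 fold change -0.23, adjusted p = 0.814). Kcnt2, a sodium-activated channel, averaged 77.8 ± 10.5 in mutant and 89.1 ± 4.13 in control kidneys (log2 fold change -0.20, adjusted p = 0.744). Kcnn4, the intermediate-conductance channel of blood cells and epithelia, was high in 1 library, control 1 at 26.4, and at 6.44 to 12.8 in all others.

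Other genes of potassium handling held none that passed by limma, edgeR or DESeq2. Of 10 partner subunits without a Kcn symbol, 7 were tested, and 3 had an unadjusted p under 0.05. Amigo1, a membrane partner of Kv channels, averaged 333 ± 15.1 in mutant and 297 ± 15.9 in control kidneys (log2 fold change 0.17, adjusted p = 0.426). Akap9, a scaffold of the Kcnq1 channel, averaged 1929 ± 74.1 in mutant and 1759 ± 130.3 in control kidneys (log2 fold change 0.13, adjusted p = 0.450). The other was Abcc8, a sulphonylurea receptor, at 7.23 ± 3.799 in mutant and 13.2 ± 1.43 in control kidneys (log2 fold change -0.94, adjusted p = 0.537). Of 4 HCN channels, 5 tested sodium-potassium pump subunits and 5 tested potassium-chloride cotransporters none passed, and 1 of these 14 had an unadjusted p under 0.05. That gene was Slc12a4, a cotransporter in cell volume control, at 283 ± 40.4 in mutant and 351 ± 20.6 in control kidneys (log2 fold change -0.32, adjusted p = 0.264). For the HCN channel gene Hcn4 the log2 fold change was -0.42 (adjusted p = 0.697).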

How the data were processed

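Poly(A)-selected RNA was made into libraries from 500 ng of input, per the labels' protocols. The tools named in the submitters' processing notes are DESeq2 1.4.5, HTSeq and TopHat2 2.0.12, and the build is mm10 (GRCm38). The gene annotation and strand setting are not given in the sources used here. The authors deposited signal values per library, gene read counts divided by 1 size factor, together with group means, the ratio between them, log2 of that ratio, and p-values. All values (100%) were whole multiples of the smallest value of their library within 0.01, so reads were recovered.

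Values were log2-transformed after adding 1, and genes whose mean reached 10 (13692 of them) were tested by limma 3.58.1 (R 4.3.3) with an intensity trend and genotype as the single term, two-sided. edgeR 4.0.16 and DESeq2 1.42.0 on recovered reads were alternatives. The members and lists were chosen with earlier results of these data known. Genes named were those that passed, the 12 smallest p, the 10 highest levels, the smallest p and highest level of each class, the 5 largest within-group SDs, 3 on each side of the mean of 10, and up to 2 per related list. Some genes that this rule names are not reported here. Kcnd1, Kcnip1, Kcnip2, Kcnip4, Dpp6, Dpp10, Kcnj1, Kcnj10, Kcnq1, Abcc8, Abcc9, single marker genes and the genes listed for their order by library number were named after their values were seen. Positions are from RefSeq GRCm38.p6, matched by symbol for all 94 genes. Exons of 20 of the 50 tested genes overlap a gene on the opposite strand in GENCODE vM21, and if counting ignored strand, reads of such pairs cannot be told apart. The steps were tested on simulated counts for 13692 genes, mutant against control, with 50 genes changed by each size. The share called in the right direction was 86.0% after a 2-fold change, 50% after 1.5-fold and 52.0% after 1.25-fold. False calls numbered 8 among the 151 made. Recovery was not worked out for potassium channel genes alone, whose median within-group SD was larger (0.30 against 0.11 for all tested genes). The shares therefore do not give the power for these genes. Low read numbers limit the precision of most members. Plots are from matplotlib 3.10.9 (Python 3.11.15).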

Additional observations from a re-analysis of the deposited data

Results flagged for a closer look

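In 54 groups of 4 libraries (27 named genes, each in mutants and in controls), 1 library stood far from the other 3 of its group, where chance gives about 2.7. Kcnj16 was at 120.3 in control 4, against 162 to 167 in the other controls.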

How the results depend on the processing

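Tested were other pseudocounts, filters, scalings and tests, the sample number as a block, a muscle score as covariate, leaving out X and Y genes, each library, both libraries numbered 2, and controls 1 and 2. The number of Kcn genes that passed was 1 in the main test. It was 2 by DESeq2 (Kcnd2 and Kcnd3) and 2 with the replicate block (Kcnd2 and Kcnj2, with adjusted p = 0.0262 for Kcnj2), where all genes that passed numbered 214 and 232 against 78. It was 0 to 1 with 1 library left out and 0 without both libraries numbered 2, and the genes that passed overall then numbered 18 to 185 and 2, on fewer samples. The block was not used as pairing: deviations of same-numbered libraries correlated at 0.325, 0.287, 0.294 and 0.0635 over tested genes, and mutant 4 was closest to control 3 (0.101). The median fold change moved by less than its spread between libraries (0.0592 on the log2 scale) in every setting. The sign held in every setting run, 20 for autosomal and 19 for X-linked genes, for 26 of the 50 tested genes, Kcnd2, Kcnd3 and Kcnj2 among them. With 1 library left out the sign was not stable for several genes of small fold change, among them Kcnj5, Kcnj8, Kcnn4 and Kcns3, with log2 fold changes between -0.21 and 0.25 for Kcnj5, -0.46 and 0.21 for Kcnj8, -0.55 and 0.014 for Kcnn4, and -0.052 and 0.077 for Kcns3. Without both libraries numbered 2 the fold change was -0.15 for Kcnh3, -0.43 for Kcnj5, 0.086 for Kcnj8 and 0.044 for Kcnn3. Without controls 1 and 2 it was -0.049 for Kcnj5, 0.65 for Kcnj8 and 0.16 for Kcnn4. With the muscle score it was 0.14 for Kcnj8 and -0.0037 for Kcns3. The cause was not tested. None of these passed.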

Other observations

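The level of Kcnd2 beside that of Foxd1 was looked at after both had been seen to follow the library numbers. Per 100 normalised counts of Foxd1, Kcnd2 had 9.47, 11.1, 11.8 and 9.32 counts in mutant libraries 1 to 4, against 9.67, 9.99, 9.61 and 7.79 in control libraries 1 to 4. The mean was 10.4 ± 1.24 in mutant and 9.27 ± 0.997 in control kidneys (SD, n = 4 each). Over all 8 libraries the ratio ran from 7.79 to 11.8. Kcnd3 varied more, with 11.5 to 20.9 counts per 100 of Foxd1 in mutant and 5.16 to 14.6 in control libraries. Ratios to Foxd1 were not worked out for further genes, so that of Kcnd2 cannot be called particular to it. A link between Kcnd2 and Foxd1 was not tested. Per 100 counts of the stromal gene Smoc2, Kcnd2 had 8.93 to 20.8 in mutant and 9.24 to 23.3 in control libraries.

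Kcnq1ot1, the antisense transcript within Kcnq1, was at 493 to 854 normalised counts in mutant and 510.4 to 1034 in control libraries, while Kcnq1, a channel of heart and epithelia, was at 18.3 to 30.2 in mutant and 16.9 to 29.98 in control libraries. Exons of the pair overlap over 121 bases.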
